A study of Mus musculus with 3 samples.

Results

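The nuclear-encoded respiratory chain genes are the structural genes of the mitochondrial electron transport chain and ATP synthase that are transcribed in the nucleus. Members were taken by gene symbol: the Nduf families a, b, c, s and v of complex I, Sdha to Sdhd of complex II, the Uqcr genes of complex III, the Cox4 to Cox8 genes with an isoform letter a, b or c of complex IV, and the Atp5 genes of complex V, with 1 pseudogene left out. No Cox4 gene carries such a letter, so none is a member. Cox4i1, Cyc1 and Ndufab1 also belong to the chain but lie outside the name pattern, and they are in no complex sum below. The pattern gave 82 of the 32286 genes measured, namely 37 of complex I, 4 of complex II, 8 of complex III, 16 of complex IV and 17 of complex V. They were measured in bronchoalveolar lavage cells of mice that had all received bleomycin through the airway, a drug whose lung injury is used to model fibrosis, with lavage 14 days later. The WT_DMSO library came from wild-type mice, labelled with the vehicle DMSO, and the WT_GW5074 library from wild-type mice given GW5074, an inhibitor of RAF kinase. The KO_DMSO library came from mice that lack Clec7a, which encodes Dectin-1, a receptor for fungal β-glucan, and was labelled DMSO. The fluid of each group was pooled over its mice and sorted for CD11b+ or CD11c+ cells before droplet 3' single-cell sequencing, and the labels give no strain, age, number of mice, dose or schedule. There is 1 library per group, so an effect of genotype or drug cannot be told apart from one of pool or library.

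The respiratory chain passes electrons from NADH through complex I, or from succinate through complex II, to ubiquinone, then through complex III and cytochrome c to oxygen at complex IV, and the proton gradient it builds drives ATP synthesis by complex V. All but complex II mix subunits encoded in the nucleus with subunits encoded in mitochondrial DNA, so 2 genomes have to supply each complex. Alveolar macrophages depend on oxidative metabolism, which they use to burn the lipids of surfactant, and dendritic cells are known to shift from respiration to glycolysis when they mature.

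The 3 libraries held 11678 to 17809 barcodes and 34859676 to 45462817 UMIs, and 42888 cells were kept at a median of 2276 to 2937 UMIs. Cells were assigned to 10 classes by their markers, none of which is a respiratory chain gene, and 30684 cells (71.5%) met the gate, so that a class is called by its gate. Some gates were not clean: monocyte-gated cells also carried macrophage markers, with the monocyte-derived macrophage list at 4881, 4875 and 4673 CPM. Resident alveolar macrophage-gated cells carried the monocyte list, which includes Chil3, at 6211 to 6540 CPM. Their median cell had 2 of its 12 markers, and the part of single markers in this sum was not separated, so it is not read as monocyte content. The neutrophil marker S100a9 was found in T cell-gated cells at 811, 129 and 51.4 CPM, and these cells carried the monocyte-derived macrophage list at 3910 to 5413 CPM, where free RNA, mixed droplets and impure gating were not told apart. B cell-gated cells carried the neutrophil list at 6199, 2612 and 4320 CPM, beside their own list at 9423, 8392 and 8182. Plasmacytoid dendritic cell-gated cells carried the monocyte list at 4044, 4823 and 3782 CPM and the monocyte-derived macrophage list at 904, 4605 and 1456. The part of this in the results of these 2 classes was not tested. The WT_DMSO library held 2901 of the 3306 neutrophil-gated cells. Conventional dendritic cell 2-gated cells carried the migratory dendritic cell list at 2333, 1701 and 2941 CPM, beside their own list at 2853, 3540 and 3029. Calls that these 2 classes share are therefore not read as separate findings. Clec7a stood at 837, 910 and 14.0 CPM in resident alveolar macrophage-gated cells. Between 80 and 154 barcodes were shared by each pair of libraries. Levels are UMIs summed over the cells of a class in a library and scaled to all UMIs of that class there (CPM), and 3 values in a row always stand for WT_DMSO, WT_GW5074 and KO_DMSO.

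The promoters of 4 members are shown because these genes recur in the results that follow: Ndufa6 marked the conventional dendritic cells, Uqcrh the migratory dendritic cells, and Uqcrh, Uqcr11 and Ndufb11 had a level below that of WT_DMSO in the knockout library in each class tested. The sequences are the 150 bases before the RefSeq start of each gene in GRCm38.p6, read 5′ to 3′ on the gene's own strand, and all 4 genes lie on the minus strand. Capitals mark a match to 1 of 4 motifs searched on both strands: the NRF1 half-site GCATGCG, the ETS site CCGGAAG, the YY1 site AAGATGG and the oestrogen-related receptor half-site AAGGTCA.
Ndufa6, chr15:82354292-82354441: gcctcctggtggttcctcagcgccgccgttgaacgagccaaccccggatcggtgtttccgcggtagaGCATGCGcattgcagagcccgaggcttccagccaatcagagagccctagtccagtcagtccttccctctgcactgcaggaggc
Uqcrh, chr4:116075071-116075220: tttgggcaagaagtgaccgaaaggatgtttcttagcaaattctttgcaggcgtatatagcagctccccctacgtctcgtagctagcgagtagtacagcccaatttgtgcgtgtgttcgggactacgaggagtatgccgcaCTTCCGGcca
Uqcr11, chr10:80406822-80406971: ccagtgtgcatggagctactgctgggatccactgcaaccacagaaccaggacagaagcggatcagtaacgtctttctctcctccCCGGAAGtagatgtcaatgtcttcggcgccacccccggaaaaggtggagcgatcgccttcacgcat
Ndufb11, chrX:20617620-20617769: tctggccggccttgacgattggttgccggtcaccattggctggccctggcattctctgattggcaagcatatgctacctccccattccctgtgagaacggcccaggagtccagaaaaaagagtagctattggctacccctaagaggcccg
Ndufa6 holds an NRF1 half-site, Uqcrh and Uqcr11 each hold an ETS site, and none of the 4 motifs is in the Ndufb11 window. Over the longer window of 300 bases around the start, 68 members had a promoter entry. The ETS site was in 17 of them (25%), against 9.93% of all 27025 genes with a promoter entry. A gene with several entries was counted if any of them held the motif. The NRF1 half-site was in 11 (16.2%), against 4.01%, and the YY1 site in 11 (16.2%), against 7.28%. The oestrogen-related receptor half-site was in 8 (11.8%), against 5.38%. ETS-family factors, NRF1, YY1 and the oestrogen-related receptors are known regulators of mitochondrial genes, but a match is a run of letters and not a shown site of binding.

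Together the members made up 2.15%, 2.25% and 2.02% of all UMIs, and the 13 mitochondrially encoded protein genes 1.86%, 2.51% and 2.35%. At least 1 UMI was found for 78 members, 60 averaged above 100 CPM over all cells, and 4 had none: Ndufa13, the hypoxia-induced Ndufa4l2 and the testis isoforms Cox7b2 and Cox8c. Ndufa13 encodes a subunit that complex I needs in all cells, so its listed 0 is not read as absence. Each transcript is counted once at its 3' end, so levels of different genes are compared as UMIs without division by length. The median member stood at 157 CPM in complex I, 125 in complex II, 322 in complex III, 375 in complex IV and 361 in complex V. The most abundant members of complexes V, IV and III were Atp5e, the small ε subunit of the ATP synthase, at 1142 ± 158 CPM (SD, n = 3 libraries), Cox8a, a small subunit of cytochrome oxidase, at 840 ± 31.8, and Uqcrh, the hinge protein that links cytochrome c1 with cytochrome c, at 770 ± 152. Ndufa2, an accessory subunit of complex I, led its complex at 348 ± 37.2 CPM, and Sdha, the flavoprotein of succinate dehydrogenase, led complex II at 134 ± 17.9. The genes lie on 19 chromosomes in the GENCODE M21 annotation (GRCm38), and their transcripts range from 360 to 4715 bases with a median of 823.5. In the last 300 bases of the transcript, where reads fall, 28 members share a 50-base stretch with another gene, mostly a processed pseudogene, and for 8 (Cox7c, Atp5g2, Ndufs3, Ndufb6, Ndufs5, Uqcrc2, Atp5l and Cox5a) this covers at least 50% of the stretches. The counts of these 8 are uncertain, since reads may be split or dropped between genes that share a stretch. Stretches were matched on either strand, and the strands were not separated. Uqcrc2 and Ndufb6 share theirs with the protein-coding genes Pdzd9 and Smim27 and not with a pseudogene.

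The summed chain was highest in the macrophage and monocyte gates and lowest in migratory dendritic cells, the mature Ccr7+ cells that leave the airspace. In resident alveolar macrophage-gated cells the sum was 25931, 25219 and 22770 CPM, or 2.46% of UMIs on average. In monocyte-derived macrophage-gated cells it was 23846, 23281 and 21078 CPM, and in monocyte-gated cells 25197, 23716 and 23698. Resident macrophages were above monocyte-derived macrophages within each of the 3 libraries, by 1.08-fold on average, which is less than the spread between libraries, and above monocyte-gated cells in 2 of 3. In migratory dendritic cell-gated cells the sum was 16722, 16448 and 14257 CPM, the lowest of the 10 classes in each library. Resident macrophages exceeded them by 1.56-fold (1.53 to 1.60 over the libraries), and the mean of both macrophage gates did so by 1.5002 ± 0.033-fold (SD, n = 3). Neutrophil-gated cells averaged 20774 ± 1863 CPM, plasmacytoid dendritic cells 20477 ± 199, T cells 19514 ± 1653, conventional dendritic cells 1 and 2 18764 ± 1781 and 18634 ± 1630, and B cells 17285 ± 1167. The spread over libraries is wide for most of those classes, so they are not ranked here. The values of plasmacytoid dendritic cells and B cells do not overlap. Per cell, the median share of a resident macrophage's UMIs was 2.51%, 2.41% and 2.19%, and that of a migratory dendritic cell 1.62%, 1.53% and 1.36%. With 3 pairs of libraries an exact permutation test cannot pass 0.05, so only the count of libraries in 1 direction is given.

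**Figure D1:**
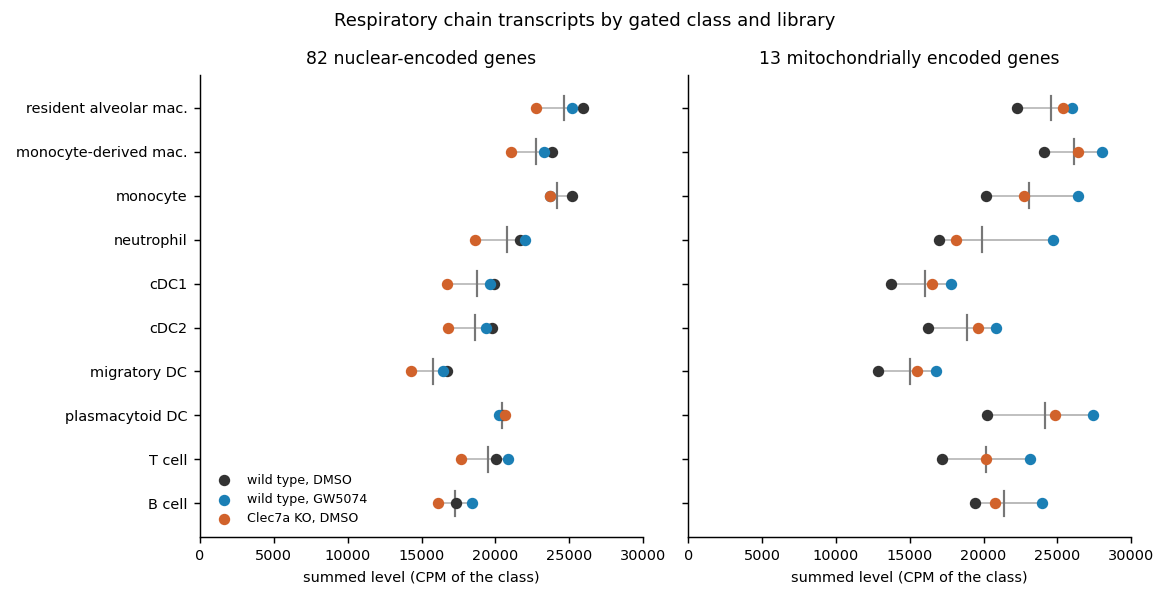
Summed levels of the nuclear-encoded respiratory chain genes and of the 13 mitochondrially encoded protein genes (CPM of the class) in the 10 marker-gated classes, each point 1 library, each grey line their range and each tick their mean; mac. is macrophage, DC dendritic cell, cDC1 and cDC2 conventional dendritic cells 1 and 2. The mean nuclear-encoded sum is highest in resident alveolar macrophage-gated cells, at 22770 to 25931 CPM, although monocyte-gated cells lie above them in KO_DMSO, and it is lowest in migratory dendritic cell-gated cells, at 14257 to 16722.

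The mitochondrially encoded genes gave another order. Their sum was highest in monocyte-derived macrophage-gated cells, at 24066, 28021 and 26385 CPM, followed in the mean by resident macrophages at 22254, 25988 and 25379 CPM, and lowest in migratory dendritic cells at 12837, 16797 and 15466 CPM. The ratio of nuclear-encoded to mitochondrially encoded UMIs was therefore near 1 in most classes, and its extremes were other classes than those of the sum. Its mean was highest in conventional dendritic cell 1-gated cells, at 1.45, 1.104 and 1.01, although monocyte-gated and neutrophil-gated cells were above them in KO_DMSO (1.04 and 1.03). Its mean was lowest in B cell-gated cells, at 0.892, 0.769 and 0.774, although plasmacytoid dendritic cells were below them in WT_GW5074 (0.740). Resident macrophages had a higher ratio than monocyte-derived macrophages in 3 of 3 libraries (1.17 against 0.991, 0.970 against 0.831 and 0.897 against 0.799). In each of the 10 classes the WT_DMSO library had the highest ratio of the 3. The share of mitochondrial UMIs is also a mark of cell quality, and the median cell carried 1.41%, 2.34% and 2.18% in the 3 libraries, so the part of cell quality in this ratio was not tested.

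The makeup of the chain varied less than its total. Complex V gave 32.5% ± 0.52 of chain UMIs in resident macrophages and 33.3% ± 0.60 in migratory dendritic cells (SD, n = 3). Complex I gave 22.7 to 24.3% in migratory dendritic cells and at least 25.2% in every library of the other 9 classes, so the groups did not overlap. Complex III gave 12.6 to 14.0% in migratory dendritic cells, where Uqcrh alone was at 1149, 1119 and 813 CPM, and 11.2 to 12.0% in resident macrophages. Complex II, the only complex without a mitochondrially encoded subunit, gave 2.32% ± 0.051 in resident macrophages and 1.70% ± 0.046 in migratory dendritic cells. It gave 1.72% ± 0.051 and 1.84% ± 0.079 in conventional dendritic cells 1 and 2, so the low share was not particular to migratory dendritic cells.

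Each class was compared with the mean of the other classes by edgeR's quasi-likelihood test on 30 sums of class and library, with Benjamini-Hochberg adjustment over 10068 genes and the library as a block. A member was called at an adjusted p under 0.05 and at least 1.5-fold. The replicates are the 3 libraries, whose treatments differ, and 77 members entered the test. In resident macrophages 60 members were above the other classes at an adjusted p under 0.05 and 3 below, against 27.6% and 23.9% of all genes tested. The median member differed by a log2 fold change of 0.30 (middle 50% of members from 0.19 to 0.41), while the median of all genes was −0.01. Only 10 of these differences reached 1.5-fold, all of them higher, where 15.1% of all genes were higher and 13.1% lower, so the raised level was spread thinly over many subunits. Monocyte-derived macrophages gave 62 above and 2 below (25.2% and 21.7% of all genes), a member median of 0.31, and 7 higher and 0 lower calls (13.5% and 9.35%). Monocyte-gated cells, which carry macrophage markers too, gave 43 above and 0 below (15% and 10.7%), a median of 0.31, and 2 higher and 0 lower calls (9.98% and 7.14%). By complex, resident macrophages were above the other classes for 30 of 35 tested members of complex I, 4 of 4 of complex II, 6 of 8 of complex III, 8 of 13 of complex IV and 12 of 17 of complex V. Leaving out the WT_GW5074 or the KO_DMSO library raised the calls in monocyte-derived macrophages from 7 to 11 and 12, and in monocyte-gated cells leaving out WT_DMSO or WT_GW5074 gave 4 and 7.

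Among the mitochondrially encoded genes, 9 of 13 were above the other classes in resident macrophages and 12 of 13 in monocyte-derived macrophages, with medians of 0.24 and 0.54. Cell cycle genes were also higher in resident macrophages, 17 of 18 tested, and 7.93 to 10.9% of those cells carried at least 3 UMIs of that list. Without such cells 13 members were called higher in resident macrophages in place of 10, and the median member stood at 0.36.

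Migratory dendritic cells gave 18 members above and 31 below (37.2% and 29% of all genes) and a median of −0.14, where the median of all genes was 0.06. Complex I held 20 of the 31 members below. The calls were 2 higher and 6 lower (24.6% and 20.7% of all genes). This split depends on the scaling: with library size in place of TMM factors the median of all genes moved from 0.06 to −0.33 and the calls became 0 higher and 31 lower. Relative to the median of all genes, the median member was at −0.20 under both scalings, and the corresponding difference was 0.31 and 0.30 in resident macrophages and 0.31 under both in monocyte-derived macrophages. The nuclear-retained RNAs Malat1 and Neat1 were higher in migratory dendritic cells, by log2 fold changes of 1.60 ± 0.06 and 0.96 ± 0.09 (SE), and their part in the lower chain sum was not tested. B cells gave 0 members above and 25 below (10.6% and 6.44%), a median of −0.38 and 0 higher and 5 lower calls (9.28% and 4.92%).

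**Figure D2:**
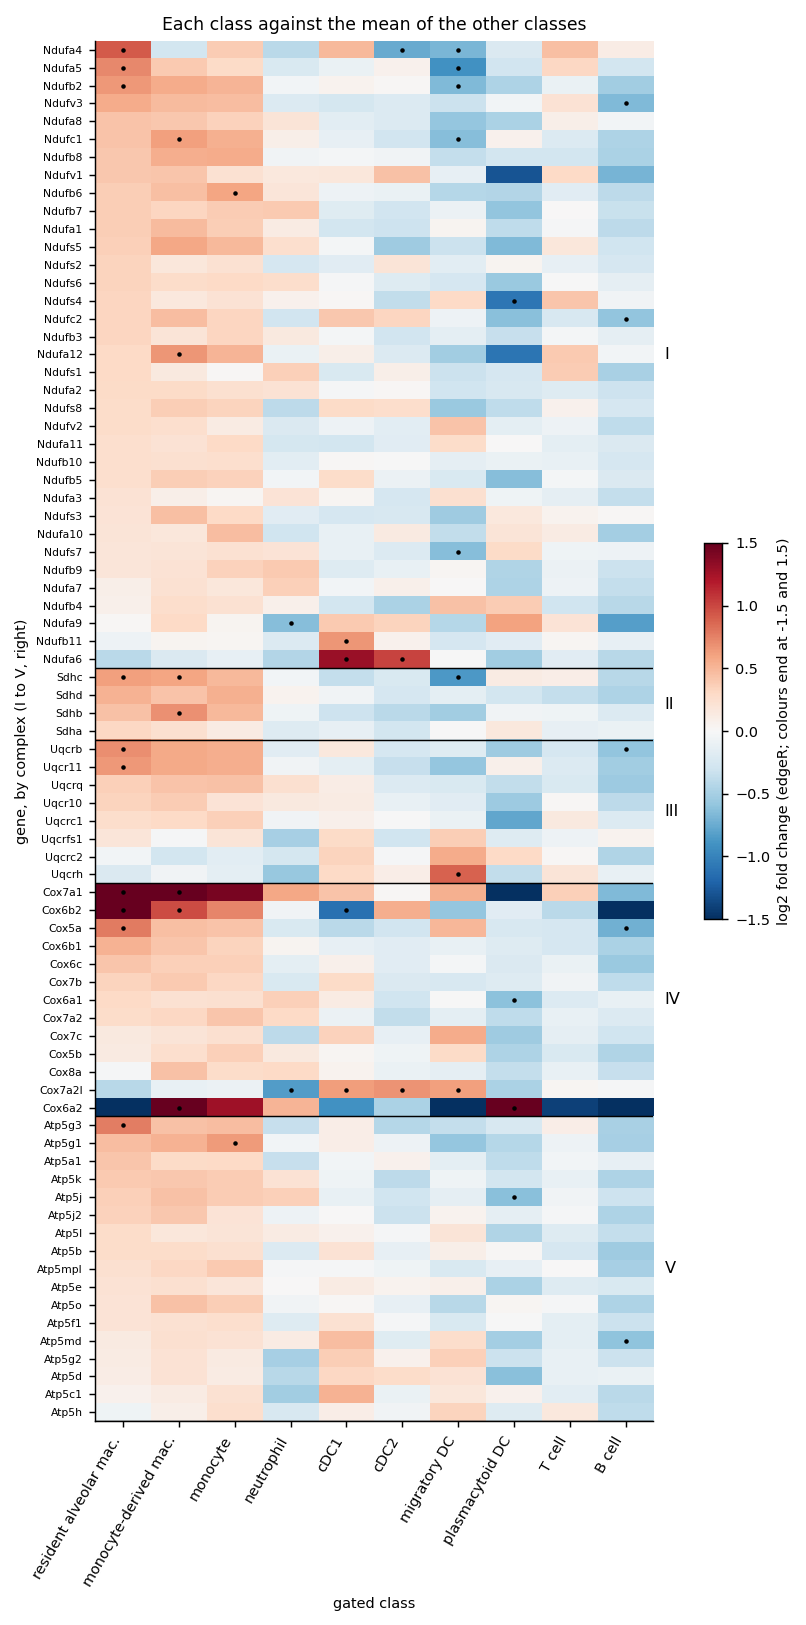
Log2 fold change of each tested member (rows, grouped by complex) in each marker-gated class against the mean of the other classes (columns), by edgeR; dots mark members called at an adjusted p under 0.05 and at least 1.5-fold, and the colour scale ends at 1.5 in either direction. The resident alveolar macrophage and monocyte-derived macrophage columns are above 0 for most members, with medians of 0.30 and 0.31, and the B cell column lies below 0 with a median of −0.38.

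The catalytic core of complex I was raised in resident macrophages, as were most members of that complex, but its subunits did not move alike in migratory dendritic cells. Of its 7 nuclear-encoded core subunits, which carry the flavin and iron-sulphur clusters, all were above the other classes in resident macrophages, by log2 fold changes from 0.19 for Ndufs7 to 0.40 for Ndufv1 (largest adjusted p 0.039, edgeR). Ndufv1, which binds NADH and flavin, was at 37.9, 38.4 and 36.7 CPM in resident macrophages and at 21.3, 19.8 and 20.7 CPM in migratory dendritic cells. These values do not overlap. In migratory dendritic cells Ndufs1, Ndufs3, Ndufs7 and Ndufs8 were below the other classes (−0.32 to −0.64), while Ndufv2 was above by 0.43 ± 0.08 (SE). Ndufs7 passed the 1.5-fold mark, at 69.2, 64.1 and 53.3 CPM against 162, 136 and 120 in resident macrophages.

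Complex II was raised in both macrophage gates for all 4 subunits. Sdhb, the iron-sulphur subunit, was at 166, 147 and 157 CPM in resident and 169, 159 and 175 CPM in monocyte-derived macrophages. It was at 62.1, 60.02 and 69.6 CPM in migratory dendritic cells, below each macrophage value. In monocyte-derived macrophages its log2 fold change was 0.69 ± 0.06 (adjusted p 1.5e-11, edgeR). Sdhc, a membrane anchor, was at 111, 115 and 99.9 CPM in resident macrophages and 33.8, 35.2 and 27.2 CPM in migratory dendritic cells, where it was called lower by 0.86 ± 0.09. Its calls in the macrophage gates, 0.62 and 0.59, lie next to the 1.5-fold mark and were lost without the WT_DMSO library (0.58 and 0.57). Sdhd, the other anchor, was at 164, 152 and 119 CPM in resident macrophages against 79.3, 73.4 and 61.7 in migratory dendritic cells. Sdha did not differ in migratory dendritic cells beyond the spread (−0.01 ± 0.08), so the subunits of this complex did not move alike.

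The member with the lowest p between the macrophage gates was Ndufa4 (chr6:11900292-11907497), a small subunit named after complex I and since found in complex IV. By its name it is counted in complex I in all sums, shares and counts given here. It was at 534, 544 and 471 CPM in resident macrophages, 251, 227 and 198 CPM in monocyte-derived macrophages and 158, 150 and 119 CPM in migratory dendritic cells. The 3 groups do not overlap. Against the other classes it was higher in resident macrophages by 0.93 ± 0.08 (adjusted p 1.4e-12) and lower in migratory and conventional dendritic cells 2 by 0.69 ± 0.09 and 0.75 ± 0.12. In the direct contrast of resident over monocyte-derived macrophages, 2 members were higher and 1 lower (7.59% and 10.4% of all genes). Ndufa4 led with a log2 fold change of 1.09 ± 0.11 (adjusted p 1.9e-10), followed by Cox6b2 with 0.98 ± 0.13. Cox6a2 was lower by 2.75 ± 0.48 (adjusted p 1.8e-05, edgeR), the larger fold, at levels of at most 6.72 CPM in either gate. The mitochondrially encoded genes had a median of −0.25 in this contrast, with 6 of 13 below.

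The other members called higher in resident macrophages were spread over complexes I to V. Cox5a, a matrix-facing subunit of cytochrome oxidase, was at 878, 817 and 809 CPM there against 381, 312 and 257 CPM in B cells, with log2 fold changes of 0.78 ± 0.09 and −0.72 ± 0.13 for the 2 classes. Atp5g3, 1 of 3 genes that encode the c subunit of the proton-driven rotor, was at 696, 610 and 534 CPM in resident macrophages and 245, 254 and 189 CPM in migratory dendritic cells, and was called in the former (0.76 ± 0.08). The values of the classes do not overlap for either gene. Ndufa5, Uqcrb, Ndufb2 and Uqcr11 were also called, by 0.65 to 0.72, and the call of Ndufb2 was lost without the WT_DMSO library (0.52). Ndufa5 and Ndufb2, accessory subunits of complex I, were called lower in migratory dendritic cells, by 0.90 ± 0.09 and 0.66 ± 0.09, as was Ndufc1 by 0.64 ± 0.07. In monocyte-derived macrophages Ndufa12, a matrix-arm subunit of complex I, and Ndufc1 were called by 0.66 and 0.61. Ndufc1 was at 342, 357 and 276 CPM there, and at 117, 149 and 97.6 CPM in migratory dendritic cells. In monocyte-gated cells Atp5g1, another c subunit gene, and Ndufb6 were called by 0.64 and 0.60. Ndufb6 shares 82.9% of its 3' stretches with the protein-coding gene Smim27, so its count is uncertain.

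Other members were called in dendritic cells. Conventional dendritic cells 1 and 2 gave 3 higher and 1 lower call (16% and 12.3% of all genes) and 2 higher and 1 lower (10.5% and 5.95%). Ndufa6 (chr15:82350140-82354322), an accessory subunit of the complex I matrix arm, was at 607, 552 and 516 CPM in conventional dendritic cells 1 and 660, 438 and 476 CPM in conventional dendritic cells 2. In the 8 other classes its mean lay between 220 and 268 CPM. Its log2 fold changes were 1.299 ± 0.09 (adjusted p 5.8e-16) and 1.01 ± 0.10 (2.3e-10). Ndufb11, a membrane-arm subunit of complex I, was called in conventional dendritic cells 1 by 0.66 ± 0.07, at 395, 308 and 251 CPM. Cox7a2l, which joins complexes III and IV into supercomplexes, was at 352, 386 and 459 CPM in conventional dendritic cells 1, 449, 398 and 528 in conventional dendritic cells 2 and 321, 331 and 403 in migratory dendritic cells. In resident macrophages it was at 216, 252 and 272 CPM, below each of these. B cells held Cox7a2l at 259 CPM in WT_DMSO and 458 CPM in KO_DMSO, from 154 and 41 UMIs. In KO_DMSO its level was thus not particular to dendritic cells. Its log2 fold changes in the 3 dendritic classes were 0.63, 0.67 and 0.62, and all of these calls were lost without the WT_DMSO library (0.57, 0.54 and 0.57).

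Uqcrh (chr4:116066965-116075071) led the 18 members that were above the other classes in migratory dendritic cells. It was at 1149, 1119 and 813 CPM there, at 800, 724 and 546 in resident macrophages and at 798, 761 and 549 in monocyte-derived macrophages. The KO_DMSO value of the dendritic cells is close to the WT_DMSO values of the macrophages, but within each library the dendritic cells were highest. Its log2 fold change was 0.89 ± 0.07 (adjusted p 1.5e-14, edgeR), and 0.49 with library size in place of TMM factors, which ends the call.

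Neutrophils gave 0 higher and 2 lower calls (16.1% and 11.9% of all genes). Cox7a2l was at 140, 287 and 208 CPM and lower by 0.84 ± 0.13, while Ndufa9 was lower by 0.64 ± 0.19 with all libraries and at 0.00 without WT_DMSO. Without WT_DMSO or WT_GW5074 the calls numbered 1 and 6. T cells gave 0 higher and 0 lower calls (12.6% and 5.16%), with 5 members above and 4 below at an adjusted p under 0.05, 20 members at an unadjusted p under 0.05, and 0 calls by DESeq2. In B cells the calls were Cox5a, given above, and Ndufv3, Atp5md, Uqcrb and Ndufc2, lower by 0.59 to 0.66. The calls of the latter 4 each ended under 1 or more of the alternative settings. Plasmacytoid dendritic cells, with 24 to 31 cells a library, gave 1 higher and 3 lower calls (4.25% and 2.5%). The lower ones were Ndufs4, Atp5j and Cox6a1 with adjusted p from 0.0036 to 0.034, and none was called by DESeq2 or without the WT_DMSO library, which left 2 calls.

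The tissue-restricted isoforms of complex IV split by class. Cox6a2 (chr7:128205435-128206387), the heart and muscle form of subunit 6a, was at 797, 616 and 586 CPM in plasmacytoid dendritic cells, from 67, 34 and 33 UMIs. In the other 9 classes it did not exceed 15.3 CPM in any library, and in B cells 0 of 452 cells carried it. A Cox6a2 UMI was found in 21 of 31, 12 of 30 and 11 of 24 plasmacytoid cells (67.7%, 40.0% and 45.8%), with exact 95% intervals from 22.7 to 83.3%. Thinned to 500 UMIs a cell the shares were 38.7%, 13.3% and 16.7%. In T cells, at median depths of 847 to 1322 UMIs against 1353 to 2210, the shares were 0.218%, 0.231% and 0%. The fitted fold rests on classes near 0 and is not given. In those plasmacytoid cells Cox6a1, the widely expressed form, was at 428, 453 and 302 CPM, so the muscle form was the more abundant in each library, whereas in resident macrophages Cox6a1 was at 676, 632 and 501 CPM and Cox6a2 at 0.285, 1.26 and 0.762. Monocyte-derived macrophages held Cox6a2 at 2.89, 6.72 and 6.27 CPM, above resident macrophages in each library. That call (1.53 ± 0.52, adjusted p 0.014) was lost with DESeq2 (1.01).

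Cox6b2, the testis form of subunit 6b, was at 46.4, 57.3 and 62.4 CPM in resident macrophages, 20.4, 24.6 and 32.9 in monocyte-derived macrophages and 5.82, 8.22 and 9.83 in migratory dendritic cells. The groups do not overlap, and the log2 fold changes of the macrophage classes were 2.07 ± 0.15 (adjusted p 1.0e-14) and 0.98 ± 0.17 (1.4e-05). In conventional dendritic cells 1 it was lower by 1.11 ± 0.32. Its common partner Cox6b1 was at 788, 772 and 785 CPM in resident macrophages, so the testis form remained the minor one. Cox7a1, the muscle form of subunit 7a, was at 16.5, 18.1 and 14.1 CPM in resident and 11.1, 15.9 and 10.2 CPM in monocyte-derived macrophages, with log2 fold changes of 2.27 ± 0.32 and 1.99 ± 0.34. It had 0 UMIs in plasmacytoid cells of all 3 libraries, against a limit of 35.7 to 54.4 CPM that 3 UMIs would give there. Cox7a2, the common form, was at 491, 517 and 443 CPM in resident macrophages. Of the remaining restricted forms Cox8b gave 1 UMI in all cells, while its partner Cox8a was at 875, 751 and 826 CPM in resident macrophages, and Cox7b, the partner of Cox7b2, at 367, 365 and 423. The 3 genes of the c subunit, whose mature proteins are the same, differed in pattern: Atp5g2 was at 456, 403 and 445 CPM in resident macrophages and 397, 313 and 420 in migratory dendritic cells, a smaller gap than for Atp5g1 (311, 294 and 297 against 132, 111 and 112) or Atp5g3.

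**Figure D3:**
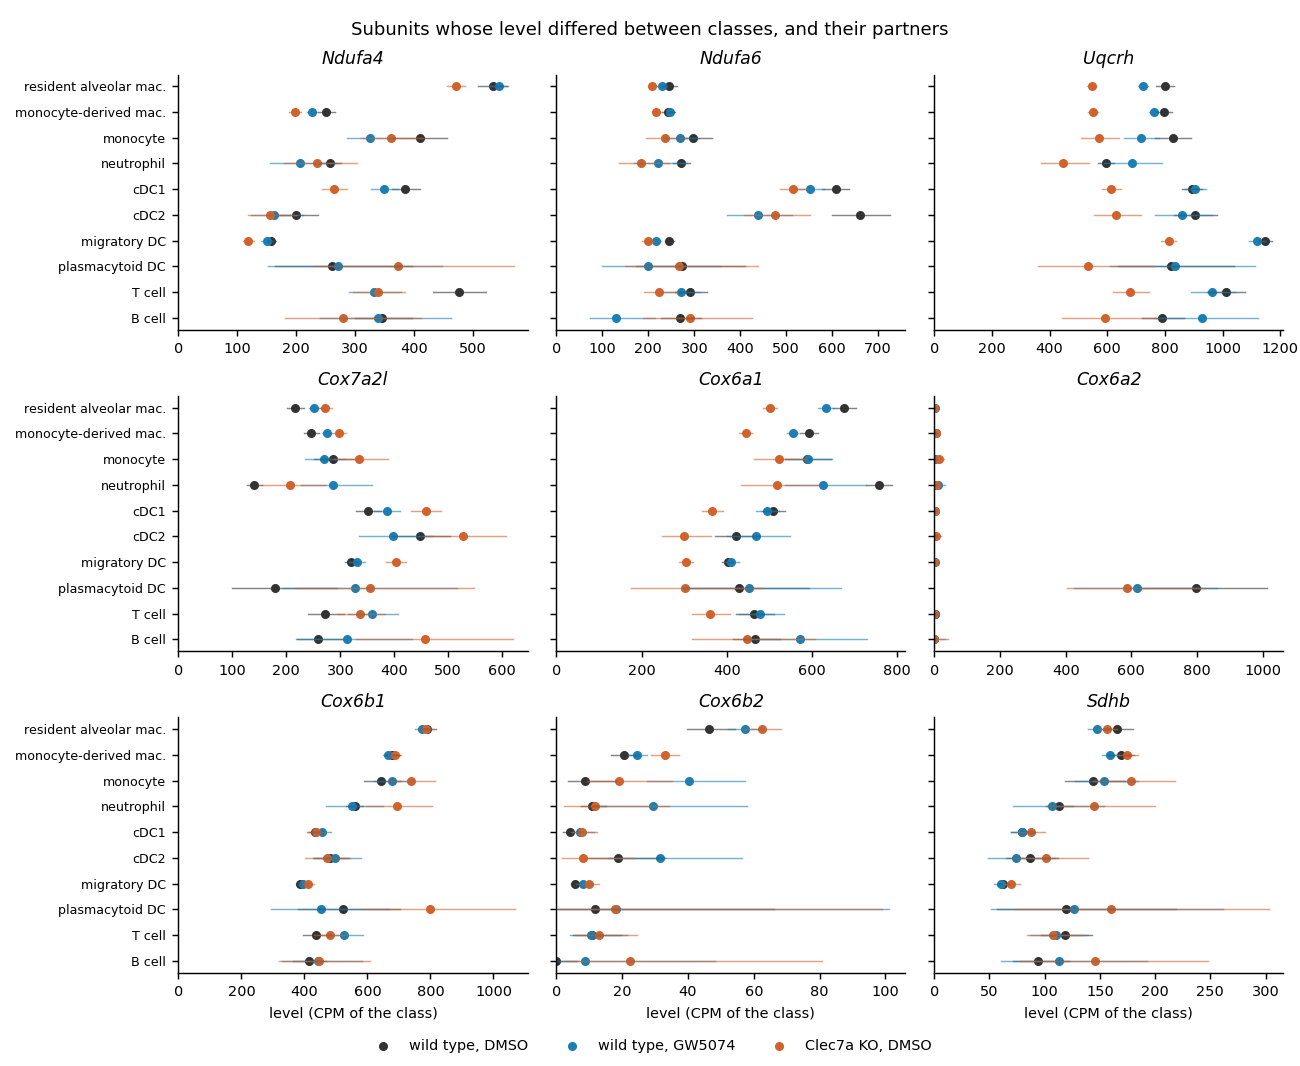
Levels (CPM of the class) of 9 members in the 10 marker-gated classes, 1 point per library with its exact Poisson 95% interval, which covers counting error only. Cox6a2 stands out in plasmacytoid dendritic cells at 586 to 797 CPM, Ndufa6 in conventional dendritic cells 1 and 2 at 438 to 660 CPM, and Ndufa4 in resident alveolar macrophages at 471 to 544 CPM.

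Genes that serve the chain from outside the name pattern are given beside the shares of all genes called, of which 15.1% were higher and 13.1% lower in resident macrophages, 13.5% and 9.35% in monocyte-derived macrophages, and 24.6% and 20.7% in migratory dendritic cells. Nothing particular to these lists is read from their counts in these classes. Of 10 tested other chain genes, 2 were called higher in resident macrophages, Etfb (1.42 ± 0.07) and Etfa (0.66 ± 0.08), which form the electron transfer flavoprotein that feeds electrons of fatty acid oxidation to ubiquinone. In migratory dendritic cells Etfb was lower by 1.16 ± 0.09, and Etfdh, Atpif1 and Coq10b were higher. In B cells 0 of the 10 were higher and 5 lower (Cyc1, Etfa, Etfb, Atpif1 and Ndufab1), where 9.28% and 4.92% of all genes were. Of 44 assembly factors tested, 1 was higher and 2 lower in resident macrophages, 4 higher and 0 lower in monocyte-derived macrophages, and 7 higher and 8 lower in migratory dendritic cells. Those were led by Sdhaf1 (2.30 ± 0.11), a factor for the iron-sulphur subunit of complex II, and at the low end by Sco2 (−1.62 ± 0.23), a copper chaperone of complex IV. Of 17 tricarboxylic acid cycle genes, 3 were higher in resident macrophages (Dld, Idh2 and Acly, 0.59 to 0.64) and 4 were lower in migratory dendritic cells (Idh3a, Idh2, Fh1 and Pdha1, −1.57 to −0.62). Of 15 regulators of mitochondrial biogenesis, 1 was higher and 1 lower in resident macrophages, 1 higher and 2 lower in monocyte-derived macrophages, and 3 higher and 4 lower in migratory dendritic cells. The coactivator Ppargc1b was higher in both macrophage gates (1.18 ± 0.15 and 1.38 ± 0.14) and lower in migratory dendritic cells by 1.49 ± 0.38. Gabpb1, a subunit of the ETS-family factor that binds the motif shown above, had log2 fold changes of the opposite sign (−0.89, −0.76 and 1.18). Nrf1, which encodes NRF1, was lower in monocyte-derived macrophages by 0.59 ± 0.10, and Yy1 and Esrra, an oestrogen-related receptor, were higher in migratory dendritic cells by 0.75 ± 0.07 and 0.69 ± 0.11. The other lower genes in migratory dendritic cells were Polg, Lrpprc and Pprc1. Of 10 genes for reactive oxygen handling and uncoupling, Prdx5 and Ucp2 were higher in both macrophage gates (0.71 to 0.96), and of 23 carriers, channels and cristae genes 6 were higher and 5 lower in migratory dendritic cells.

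The knockout library had less of the chain than the WT_DMSO library in nearly every class, by amounts that were small for each gene. No test between libraries was possible, so ratios are given with exact conditional binomial 95% intervals that cover counting error only. The classes share the libraries and are not replicates of the genotype. The summed chain of KO_DMSO over WT_DMSO was 0.878 (0.871 to 0.885) in resident macrophages, 0.884 (0.877 to 0.891) in monocyte-derived macrophages and 0.853 (0.845 to 0.860) in migratory dendritic cells. It was below 1 in 9 of 10 classes, with a median of 0.880 and a range from 0.839 to 1.004. Complexes I and III were below 1 in 10 of 10 classes, at medians of 0.847 and 0.792. Complex V was below 1 in 9 at a median of 0.876, complex II in 8 at 0.897 and complex IV in 7 at 0.958, so complex III had the lowest and complex IV the highest median. The mitochondrially encoded sum lay on the other side, above 1 in 10 of 10 classes at a median of 1.158. Ribosomal protein genes, which are also short and abundant, were above 1 in 6 of 10 classes at a median of 1.012. TMM factors brought the ratio to 0.908 in resident and 0.944 in monocyte-derived macrophages.

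For GW5074 over DMSO in wild-type mice, the summed chain was 0.973 (0.965 to 0.980) in resident macrophages, 0.976 (0.970 to 0.983) in monocyte-derived macrophages and 0.984 (0.976 to 0.992) in migratory dendritic cells. Over the 10 classes it was below 1 in 7, with a median of 0.985. Complex I was below 1 in 9 classes, at a median of 0.938, while complexes IV and V were above 1 in 7 and 6. The mitochondrially encoded sum was above 1 in 10 of 10 classes at a median of 1.304. Both comparisons share the WT_DMSO library, whose mitochondrial share was the lowest of the 3.

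Single members were called between libraries at 1.5-fold or more with an interval that excludes 1, among genes that reached 50 CPM in either library and 100 UMIs in the pair together. In resident macrophages 1 of 73 members was higher and 1 lower in KO_DMSO over WT_DMSO, where 2.6% of all genes were higher and 3.45% lower. The same genes were called in monocyte-derived macrophages, 1 higher and 1 lower of 71 (1.4% and 2.95%). Ndufs5, an accessory subunit of complex I, was the higher one, at 38.7, 55.6 and 61.8 CPM in resident macrophages, a ratio of 1.59 (1.32 to 1.94), and at 41.2, 58.5 and 64.2 CPM in monocyte-derived macrophages, a ratio of 1.56 (1.32 to 1.85). Of its 3' stretches 54.6% are shared with a processed pseudogene, so its counts are uncertain. Ndufb4, a membrane-arm subunit of complex I, was the lower one, at 71.5, 42.4 and 45.4 CPM in resident macrophages, 1.58-fold lower in the knockout library (1.34 to 1.86), and at 69.7, 48.3 and 44.5 CPM in monocyte-derived macrophages, 1.57-fold lower (1.34 to 1.83). The WT_DMSO value stands apart from the other 2 libraries for both genes. In these gates Ndufb4 reached 50 CPM only in WT_DMSO and Ndufs5 only in the other 2 libraries. Each was thus tested only through the side on which it was higher. Under TMM factors Ndufb4 in monocyte-derived macrophages was at −0.55 on the log2 scale, under the 1.5-fold mark. For GW5074 over DMSO, 0 of 73 members were higher and 1 was lower in resident macrophages (0.616% and 0.455% of all genes), again Ndufb4 at 1.69-fold (1.43 to 1.99). In monocyte-derived macrophages 0 of 71 were called in either direction (0.287% and 0.517%). Between the knockout and GW5074 libraries 0 of 72 and 0 of 70 members were called in the 2 gates, where 1.02% and 1.45%, and 1.05% and 1.98%, of all genes were higher and lower.

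Below the 1.5-fold mark the members leaned to 1 side in the knockout library. Of 73 members in resident macrophages 57 had a ratio of KO_DMSO over WT_DMSO below 1, with a median log2 ratio of −0.14 against −0.03 for all genes. Of 71 in monocyte-derived macrophages 54 did, with −0.15 against −0.07. In conventional dendritic cells 1 and migratory dendritic cells the medians were −0.26 and −0.27 against −0.04 and −0.07, with 53 of 68 and 52 of 64 members below 1. Of the 55 members that could be tested in at least 8 classes, 26 were below 1 in each class tested (47.3%, against 16.5% of all genes) and 5 were above (9.09%, against 10.5%). The 26 included 4 of the 8 complex III genes, Uqcrh, Uqcr10, Uqcr11 and Uqcrq, and Ndufb11, Atp5l and Atp5e. The complex III genes Uqcrc1 and Uqcrc2 were tested in only 7 and 6 classes and could not be among the 26. Uqcrh was at 800, 724 and 546 CPM in resident macrophages, and its log2 ratio ran from −0.57 to −0.42 over 9 classes. Ndufb11 was at 284, 226 and 198 CPM in resident macrophages, and its log2 ratio ran from −0.97 to −0.42 over 9 classes. Atp5l, a membrane subunit of complex V, was below 1 in 10 of 10 classes, at −0.62 to −0.34, although 70.1% of its 3' stretches are shared with pseudogenes. The 5 above 1 were the catalytic β subunit Atp5b, the central-stalk γ subunit Atp5c1, the peripheral-stalk Atp5o, Cox7a2l and Cox7b. Atp5c1 was at 186, 204 and 249 CPM in resident macrophages, with log2 ratios of 0.29 to 0.93 over 9 classes, and Cox7a2l at 216, 252 and 272 CPM, with 0.23 to 0.82. For GW5074 over DMSO, 6 of 55 members were above 1 in each class tested (10.9%, against 7.06% of all genes) and 5 below (9.09%, against 5.58%).

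**Figure D4:**
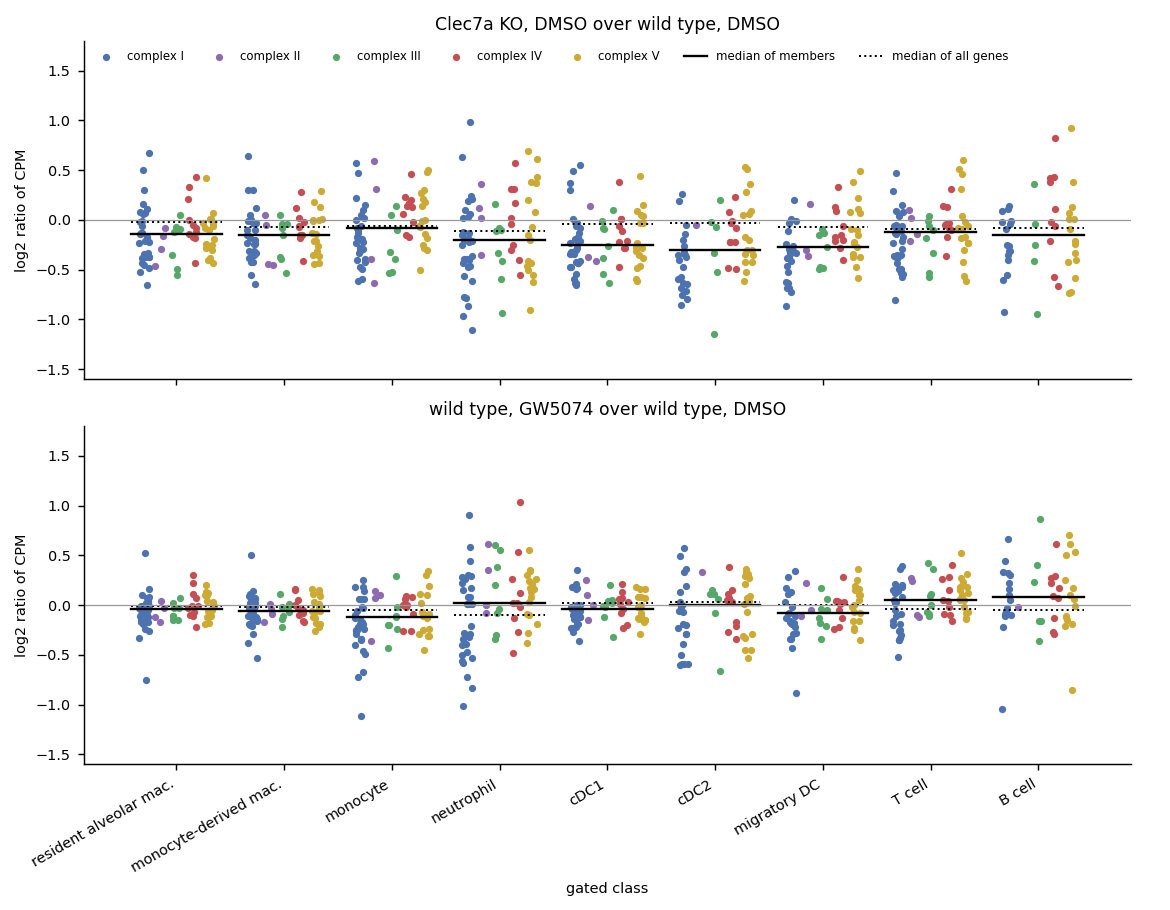
Log2 ratio of CPM of each tested member (points, coloured by complex) in KO_DMSO over WT_DMSO (top) and WT_GW5074 over WT_DMSO (bottom), in 9 marker-gated classes; solid lines are the median of the members and dotted lines that of all genes, and plasmacytoid dendritic cells are left out since at most 5 members could be tested there. In the upper panel the member median lies below that of all genes in each class, for example at −0.30 against −0.03 in conventional dendritic cells 2 and at −0.27 against −0.07 in migratory dendritic cells.

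Shorter transcripts had the lower ratios in the knockout library. In conventional dendritic cells 1 the 24 members of up to 659 bases had a median log2 ratio of −0.31 and the 23 longest −0.08. In resident macrophages the medians of the 25 shortest and 24 longest were −0.18 and −0.11. Across members, which are not independent and share 1 pair of libraries, Spearman's rho of length and ratio was 0.374 and 0.144 in the 2 classes. The part of transcript length in the ratios was not tested.

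In the other classes the calls were more frequent for all genes, members included. Migratory dendritic cells gave 0 higher and 7 lower members of 64 in KO_DMSO over WT_DMSO (4.42% and 7.85% of all genes), led by Ndufb4 at 71.5, 38.8 and 39.3 CPM (log2 ratio −0.86) and Ndufc2 at 182, 136 and 110 CPM (−0.73). Conventional dendritic cells 1 gave 0 and 7 of 68 (4.69% and 5.99%), with Ndufb11 at 395, 308 and 251 CPM (−0.65) and Uqcr11 at 295, 306 and 190 CPM (−0.64) at the low end. Conventional dendritic cells 2 gave 0 and 9 of 55 (7.93% and 7.87%), with Uqcr11 at 315, 341 and 142 CPM (−1.15) and Ndufb11 at −0.85. The knockout value of Uqcr11 lies below both wild-type values in each of these classes. Monocyte-gated cells gave 1 and 3 of 67 (6.77% and 11.2%), Sdhc higher at 0.60 and Sdha and Ndufb11 lower at −0.63 and −0.61. Neutrophil-gated cells differed in content between libraries, with the neutrophil list at 46785, 16246 and 26744 CPM, the monocyte-derived macrophage list at 2980, 7106 and 6149 CPM, and a median mitochondrial share of 0.495%, 1.66% and 0.548% in 2901, 175 and 230 cells. The part of this in the members' ratios was not tested. They gave 3 and 10 of 72 (8.68% and 13.3%), with Ndufs5 (0.98) and Atp5d (0.69) high and Ndufb6 (−1.105) and Ndufb11 (−0.97) low. T cells gave 1 and 2 of 70 (3.4% and 9.11%), Atp5b higher at 0.60 and Ndufb6 and Atp5l lower at −0.80 and −0.61. B cells gave 2 and 3 of 46 (7.99% and 10.1%), Atp5c1 (0.93) and Cox7a2l (0.82) high and Uqcr11 (−0.94) and Ndufb11 (−0.92) low.

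For GW5074 over DMSO the remaining classes gave few calls. Migratory dendritic cells gave 0 and 1 of 64 (3.88% and 2.37%), Ndufb4 at −0.88. Monocyte-gated cells gave 0 and 3 of 70 (5.05% and 6.92%), with Ndufb4 at 90.0, 41.7 and 38.3 CPM (−1.11) and Ndufs7 at 173, 104 and 151 CPM (−0.73) lowest. Ndufb4 was thus below 1 in 5 of 5 classes tested in this comparison and in 4 of 4 in the knockout comparison, which share the WT_DMSO library. A gene was tested only where it reached 50 CPM in either library. In the classes whose values are given, Ndufb4 did so in WT_DMSO alone. The filter therefore favoured this direction, and the 2 counts are not support for it. Between the knockout and GW5074 libraries Ndufb4 was tested in no class. Conventional dendritic cells 1 and T cells gave 0 of 67 each in either direction (2.87% and 0.821%, and 3.54% and 3.28%). Conventional dendritic cells 2 gave 0 and 5 of 56 (6.94% and 4.51%), with Uqcrfs1, the Rieske iron-sulphur protein, at −0.66 and Ndufb11 at −0.60. Neutrophils, whose macrophage-list and mitochondrial shares were higher in this library (7106 against 2980 CPM, and 1.66% against 0.495%), gave 4 and 1 of 71 (10.8% and 15.2%), Cox7a2l (1.03) and Ndufb2 (0.91) high and Ndufb9 (−0.83) low. B cells gave 5 and 2 of 48 (5.97% and 5.73%), Uqcrb (0.87) and Atp5b (0.71) high and Ndufa6 (−1.05) and Atp5g1 (−0.85) low. Plasmacytoid cells gave 1 and 0 of 5 (7.14% and 4.4%), Cox8a at 0.69.

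**Figure D5:**
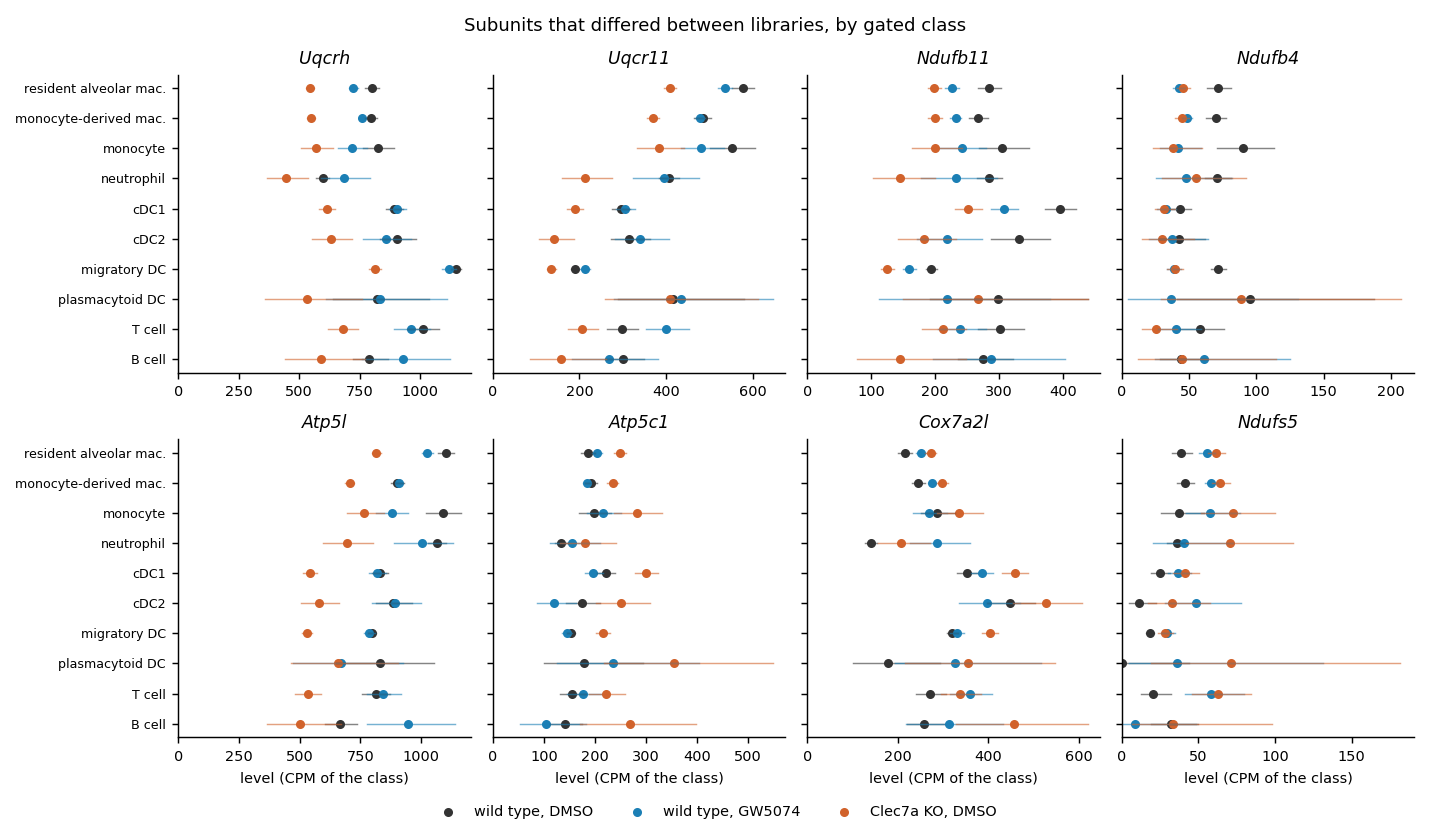
Levels (CPM of the class) of 8 members in the WT_DMSO, WT_GW5074 and KO_DMSO libraries in the 10 marker-gated classes, with exact Poisson 95% intervals, which cover counting error only. In both macrophage gates Uqcrh, Uqcr11, Ndufb11 and Atp5l are lowest and Atp5c1 and Cox7a2l highest in KO_DMSO, while for Ndufb4 and Ndufs5 the WT_DMSO library stands apart from both others (71.5 against 42.4 and 45.4 CPM, and 38.7 against 55.6 and 61.8 CPM, in resident alveolar macrophages).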

How the data were processed

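Droplet 3' single-cell RNA was measured in 3 libraries, 1 per group, whose cells were pooled and sorted before capture, per the labels' protocols. The authors deposited whole-number UMI counts per gene and barcode, made with Cell Ranger 2.1.1 against mm10 per the submitters' processing notes, and the labels name both a SeekOne chip and a 10× Genomics platform. The least UMIs of a deposited barcode were 500. Cells with under 200 genes or over 20% mitochondrial UMIs were removed (17 to 50 a library), no doublet caller was run, and each cell was put in 1 of 10 classes if at least 3 markers had a UMI and the weighted marker score was at least 1.5 times that of the next class. These gate thresholds were set after the data were seen, and 909 resident and 1231 monocyte-derived macrophage-gated cells lay just inside the gate's margin, with 1082 and 1574 just outside. The members, the gene lists and the tests were chosen with earlier results of these data known.

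Counts were summed per class and library. Class contrasts used edgeR 4.0.16 (R 4.3.3) with TMM factors and its filter on low counts, with class and library as terms, and DESeq2 1.42.0 as an alternative. The library serves as the pairing, since all classes of a library come from 1 pool. The 3 libraries act as replicates although their treatments differ. With the library as a block, p-values rest on the spread that remains between class sums after class and library are fitted. A treatment effect that differs between classes adds to that spread. Libraries were compared by ratios of CPM with exact conditional binomial intervals, with no test, and KO_DMSO over WT_GW5074 is given for the macrophage gates only, since it shares its libraries with the other comparisons. Intervals and limits (3 UMIs for a count of 0) cover counting error only. The code was tested on simulated counts. Named were the 5 highest and 5 lowest called members of each class contrast, every member called between libraries in the macrophage gates and the 2 highest and 2 lowest elsewhere, the complex II and core complex I subunits, the isoforms with their partners and the most abundant member of each complex. Ndufv1 values, and Uqcrh, Ndufb11, Atp5l, Atp5b, Atp5c1, Atp5o, Cox7a2l, Cox7b, Uqcr10 and Uqcrq in the comparison over all classes, were picked after their values were seen. Alternatives were other scalings, filters, gates, cell subsets and leaving out each library. Sequences and motifs came from RefSeq promoters, which have entries for 68 of the 82 members.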

Additional observations from a re-analysis of the deposited data

How the results depend on the processing

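Class contrast counts of called members moved more than their directions. Of the values of single members in class contrasts under alternative settings, 510 kept direction and call, 66 lost the call and 1 reversed, Ndufa9 in neutrophil-gated cells, which ran from −0.87 to 0.0022 when 1 library was left out, the latter without WT_DMSO. In the monocyte-derived macrophage gate 7 calls became 11 with no filter on low counts, 12 with a stricter gate, 13 without cycling cells, 13 without shared barcodes and 12 without the neutrophil sums, the last 2 settings being chosen after seeing the data. In the monocyte gate 2 became 1 with DESeq2, 5 with library size only, 7 with the stricter gate, 11 without cycling cells and 5 without shared barcodes. In the neutrophil gate 2 became 1 with library size only, with no replicate block, with a stricter cell filter and without cycling cells. In migratory dendritic cells 8 became 16 with DESeq2, 31 with library size only, 14 with the stricter gate, 14 without shared barcodes and 15 without the neutrophil sums. In plasmacytoid dendritic cells 4 became 1 with DESeq2 and with library size only, 12 without cycling cells and 7 without the neutrophil sums. In B cells 5 became 2 with DESeq2, 1 with library size only, 3 with no replicate block and 3 with the stricter cell filter. Leaving out 1 library gave 9 to 14 calls in resident and 7 to 12 in monocyte-derived macrophages, 2 to 7 in monocytes, 1 to 6 in neutrophils, 3 to 5 and 2 to 3 in conventional dendritic cells 1 and 2, 11 to 12 in migratory and 2 to 4 in plasmacytoid dendritic cells, 0 in T cells, 6 to 7 in B cells and 3 between the macrophage gates. It also gave a macrophage over migratory dendritic cell sum of 1.48 to 1.51 and a macrophage nuclear to mitochondrial ratio of 0.874 to 0.989, which was 0.942 with all libraries and 0.820 from the mean of CPM per cell. The cause of these shifts was not tested.

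Chain ratios between libraries moved toward 1 under other scalings. In resident macrophages WT_GW5074 over WT_DMSO (0.973) became 0.985 with TMM and 0.983 with DESeq2 factors. KO_DMSO over WT_DMSO (0.878) became 0.908 and 0.897, 0.891 from the mean per cell and 0.886 without the deepest 10% of cells. KO_DMSO over WT_GW5074 (0.903) became 0.922, 0.913 and 0.915 per cell. In monocyte-derived macrophages WT_GW5074 over WT_DMSO (0.976) became 1.0 with TMM, 0.997 with DESeq2 factors, 0.985 per cell and 1.0015 without the deepest cells. KO_DMSO over WT_DMSO (0.884) became 0.944, 0.934, 0.901 and 0.899, and KO_DMSO over WT_GW5074 (0.905) became 0.944, 0.937, 0.915 and 0.898 in that order. Called members in monocyte-derived macrophages went from 0 to 1 for WT_GW5074 over WT_DMSO with no filter on low values and without the deepest cells, from 2 to 1 for KO_DMSO over WT_DMSO with TMM or DESeq2 factors and to 4 with no filter, and from 0 to 1 for KO_DMSO over WT_GW5074 with no filter. No paired analysis was possible because each group has 1 library, except across classes, where the library is the block. With few UMIs in plasmacytoid, B and conventional dendritic cells 2, many members could not be tested there.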
